A study of Mus musculus with 6 samples.

Results

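Oligodendrocyte precursor cells (OPCs) were described from a droplet single-nucleus library made from mouse brain that was fixed in formalin and embedded in paraffin (FFPE). Members were the nuclei that the authors' deposited annotation names OPC, which were 215 of 7031 annotated nuclei (3.06%). They lie in 2 of the authors' 14 cluster numbers (leiden values), with 154 nuclei in leiden value 8 and 61 in leiden value 14. The other 6816 nuclei belong to 11 classes: astrocytes, oligodendrocytes, microglia, endothelial cells, fibroblasts and neuron classes ExNeuron1 to ExNeuron6.

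The series asks how far nuclei from FFPE blocks can be profiled at scale, and it holds 6 samples, of which the droplet sample is 1 library. All samples are labelled mouse cortex of strain C57BL/6J at 8 to 12 weeks of age, with no treatment or genotype contrast. Nuclei came from scrolls of 50 µm. The shared protocol lists 3 ways of removing paraffin (heated mineral oil, heated xylene and xylene at room temperature), and the labels do not tie the droplet sample to any of them. With 1 library there is no replicate, so no test was made: the intervals below are exact 95% intervals that cover counting error only, and how far animals would differ is unknown.

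OPCs are dividing glial cells of the adult brain that give rise to oligodendrocytes. They carry the PDGF receptor alpha and the proteoglycan NG2, are surrounded by a matrix of chondroitin sulfate proteoglycans, and receive synapses from neurons. On the way to a myelinating cell they pass through a committed precursor stage, in which genes such as Bcas1, Gpr17 and Enpp6 are switched on before the major myelin genes reach their full level.

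The OPC nuclei held 76554 unique molecular identifiers (UMIs, 1 per captured transcript) in all, with a median of 340 UMIs per nucleus against 325 in the other nuclei and a median of 287 genes against 276.5. Leiden values 8 and 14 had medians of 345 and 322 UMIs, and their median shares of mitochondrial UMIs were 3.46% and 3.33%. Levels are given as CPM, the UMIs of a gene scaled to 1000000 summed UMIs of a set. A single UMI equals 13.1 CPM in OPC nuclei and 47.8 CPM in leiden value 14, so low genes are coarse. No barcode occurred more than once.

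The 5 genes that mark the cells were all higher in OPC nuclei. Since such clusters are built from gene expression, which can include these genes, these levels describe the annotation and do not test it. Pdgfra (chr5:75152292-75198215, GRCm38), the receptor for platelet-derived growth factor, had 18 UMIs in 17 OPC nuclei and 29 UMIs in the 6816 others. This is 235 CPM (139 to 372) against 11.5 CPM (7.68 to 16.5), a ratio of 20.5 (10.7 to 38.2).

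Vcan (chr13:89655312-89742509), which encodes the proteoglycan versican, had 49 UMIs in OPC nuclei and 53 in all others, or 640 CPM (474 to 846) against 20.96 (15.7 to 27.4). Its ratio of 30.5 (20.3 to 45.9) was the largest of all genes with at least 10 UMIs in OPC nuclei. Nearly as many versican transcripts thus came from the 215 OPC nuclei as from the rest of the library.

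Tnr (chr1:159523769-159931729), the gene of the matrix glycoprotein tenascin-R, was the most abundant of the 5, with 211 UMIs in 102 OPC nuclei. Its level of 2756 CPM (2397 to 3154) compared with 321 (299 to 344) elsewhere, a ratio of 8.59. Lhfpl3, a tetraspan membrane protein gene, had 128 UMIs against 397 and a ratio of 10.7 (8.66 to 13.0). Xylt1, the xylosyltransferase that starts glycosaminoglycan chains on proteoglycans, had 59 UMIs against 219 and a ratio of 8.90 (6.56 to 11.9).

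Among the 12 classes OPC had the highest level of each of the 5 genes. The next class differed by gene: microglia for Pdgfra at 68.3 CPM (2 UMIs) and for Tnr at 444 (13 UMIs), a fibroblast level of 50.5 for Vcan (1 UMI), ExNeuron4 at 294 for Lhfpl3 (89 UMIs) and astrocytes at 201 for Xylt1 (47 UMIs). Oligodendrocytes, the cells that OPCs become, stood at 9.19 CPM for both Pdgfra and Vcan, with 1 UMI each.

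**Figure D1:**
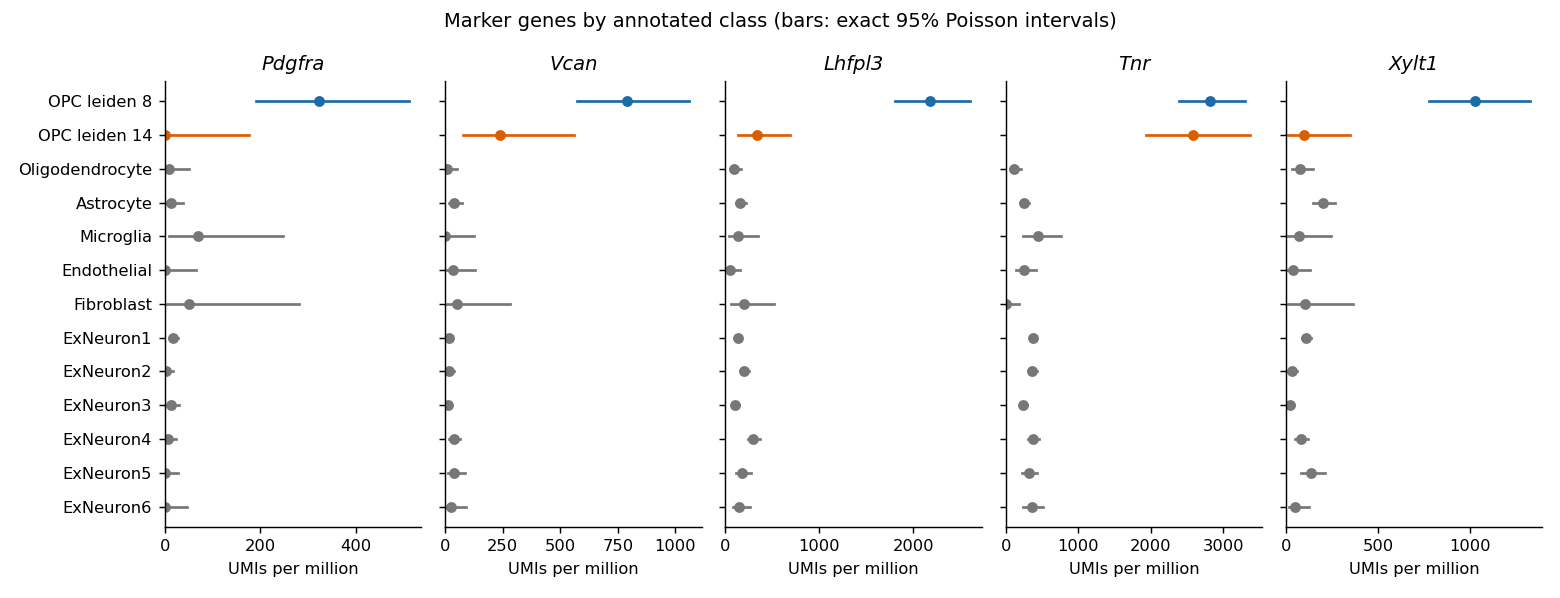
Level of the 5 marker genes, in CPM on the x axis, in the nuclei of leiden values 8 (blue) and 14 (orange) and in the 11 other classes (grey), with exact 95% Poisson intervals as bars. Tnr is high in both leiden values, while Pdgfra is at 0 UMIs in leiden value 14 and Lhfpl3 falls there from 2174 to 335 CPM.

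The number of these genes seen varied between nuclei. Of the 215 OPC nuclei, 63 had no UMI of any of the 5, 61 had 1 of them, 52 had 2, 31 had 3, 8 had 4 and none had all 5. At least 2 were seen in 42.3% of OPC nuclei (35.6% to 49.2%), against 1.60% of the other nuclei (1.31% to 1.93%) at nearly the same median depth. After each nucleus was drawn down to 250 UMIs, which left out 3 OPC nuclei and 180 others, the shares were 32.1% and 0.467%.

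**Figure D2:**
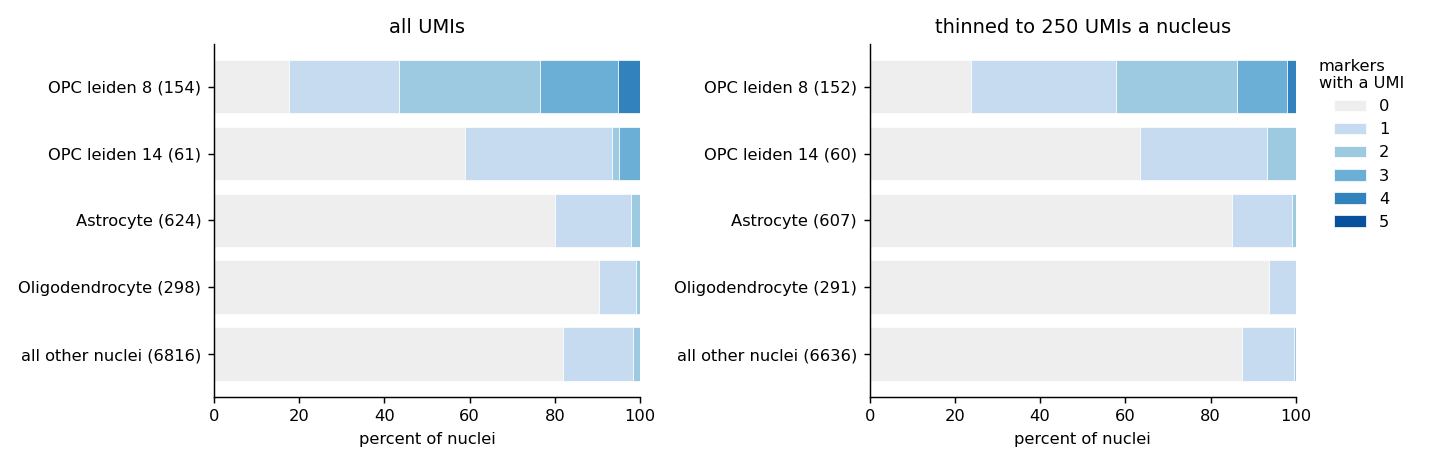
Percent of nuclei (x axis) with UMIs of 0 to 5 of the marker genes (shade), with all UMIs at left and after thinning at right, and the number of nuclei in brackets. At least 2 genes were seen in 56.5% of nuclei of leiden value 8 and 6.56% of leiden value 14, and in 42.1% and 6.67% after thinning.

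Over all genes, 1884 could be compared between OPC and other nuclei, because OPC nuclei held at least 10 UMIs or would have held them at the level of the others. A gene was called at a ratio of at least 2 or at most its inverse: 183 genes were higher (9.71% of those compared) and 89 lower (4.72%), with a median log2 ratio of 0.01. Of the compared genes, 408 passed the floor only through their level in OPC nuclei and 225 only through that in the others, and among the called genes these were 145 and 79. The 3 called genes nearest the threshold were Rspry1, Ccar1 and Agap1 at ratios of 2.00, 2.01 and 2.01, and the nearest beyond it were Tnpo1 at 1.99, Ddah1 at 1.98 and Csmd3 at 1.96.

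The 25 genes with the largest ratios, by construction all called, included genes of several kinds. Matn4, a matrilin of the extracellular matrix, had 11 UMIs against 14, Itga9, the integrin alpha 9 subunit, 12 against 18, and Sema3d, a secreted semaphorin, 11 against 16. Shc4, an adaptor of receptor tyrosine kinases, had 11 against 18 UMIs, and Cacng4, an auxiliary subunit of AMPA receptors, 24 against 58. Arhgap24 and Arhgap31 had 18 against 32 and 26 against 79 UMIs.

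The 25 genes were picked for high ratios in OPC nuclei, which largely sets the rank of OPC among the classes. OPC was the class with the highest level for 20 of them. The exceptions were Adam12, Arhgap31 and Sema3d, highest in the 47 fibroblast nuclei, Cobll1, highest in endothelial nuclei, and 0610040J01Rik, highest in microglia. Adam12, a membrane metalloprotease gene, reached 555 CPM in fibroblasts against 144 in OPC nuclei. Abtb2 (28 against 35 UMIs, ratio 26.4, 15.5 to 44.7) and the unnamed gene Gm4876 (31 against 51 UMIs, ratio 20.1) had intervals that overlap that of Pdgfra. The median length of the 25 genes was 151 kb, against 107 kb over all genes compared and medians from 26.1 to 273 kb for the leading genes of the other classes.

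**Figure D3:**
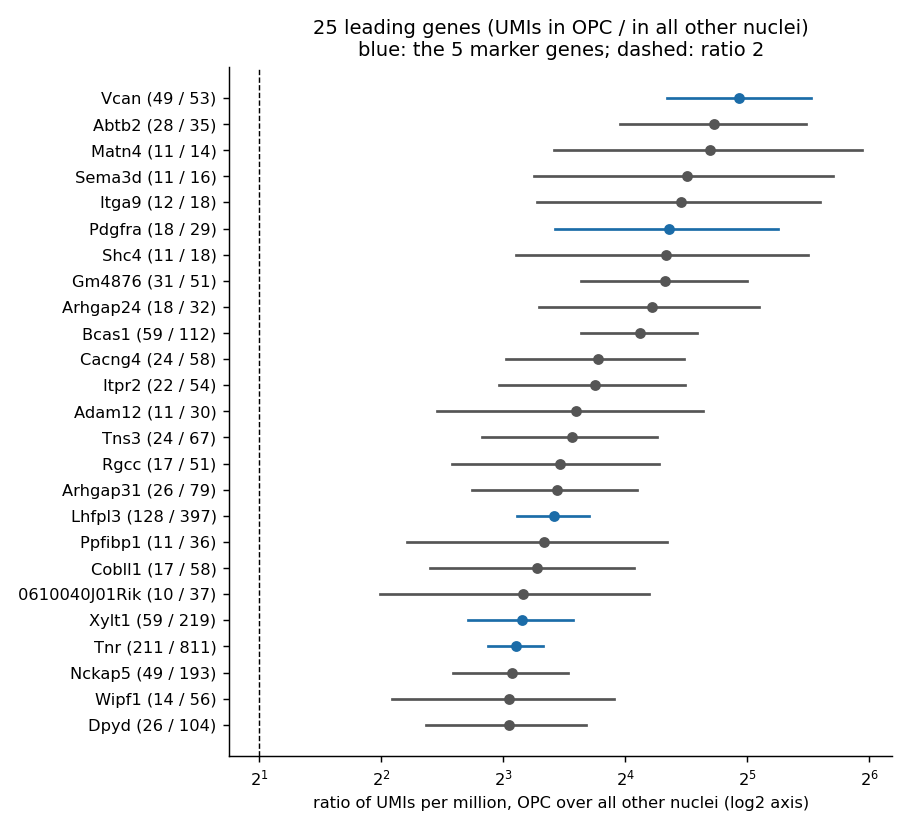
Ratio of CPM in OPC nuclei over all other nuclei (x axis, log2 scale) for the 25 leading genes, with exact 95% intervals and the UMIs of both sets in brackets. The 5 marker genes (blue) run from 8.59 for Tnr to 30.5 for Vcan.

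The list of OPC identity genes, 24 in all, had UMIs for every member in the 2 sets together. Ratios were above 1 for 23, with a median log2 ratio of 2.56 against 0 over the 17141 genes with UMIs. The list includes the 5 markers and shares Gpr17 and Neu4 with the committed precursor list, so these values partly repeat the levels given above. Sox6, a transcription factor of immature oligodendrocyte lineage cells, had 44 UMIs against 205 (ratio 7.09), and Sox10, which marks the whole lineage, 10 against 43 (7.68). Several classical genes were too sparse to compare: Cspg4, the NG2 gene, had 9 UMIs against 8, C1ql1 8 against 9, Olig1 7 against 120 and Olig2 2 against 18.

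Of 32 listed genes of the matrix and its proteoglycans, 22 had ratios above 1 and 8 below. Of the 16 that could be compared, 8 were higher and 1 was lower, beside 9.71% and 4.72% of all genes compared, but 5 of the 16 passed the floor only through OPC nuclei and 3 of the 8 are markers. Their summed level, the markers included, was 2.28 times (2.11 to 2.45) that of other nuclei. Astrocytes were nearer: the list stood at 9954 CPM in OPC nuclei (9259 to 10686), 7762 in astrocytes (7409 to 8127) and 7174 in leiden value 14 (6072 to 8419). Besides Vcan, Tnr and Xylt1, the higher genes were Bcan, the brevican gene (33 against 229 UMIs, ratio 4.76), Ptprz1, a receptor phosphatase that is also a proteoglycan (48 against 445, 3.56), Chst11, a chondroitin sulfotransferase (15 against 109, 4.55), Cspg5 (2.08) and the glypican gene Gpc5 (2.79). Ptprz1 and Gpc5 were highest in astrocytes, at 735 and 2221 CPM against 627 and 1019 in OPC nuclei. Hs3st4, a heparan sulfotransferase gene, was lower at 6 against 656 UMIs (0.30).

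Of 44 listed adhesion genes, 28 had ratios above 1 and 15 below. Of the 41 that could be compared, 10 were higher and 3 lower, beside 9.71% and 4.72% of all genes compared, and 3 of the 41 passed only through OPC nuclei. Their median log2 ratio was 0.26. Dscam, an adhesion molecule of the immunoglobulin family, had 134 UMIs against 905 (ratio 4.89), Dscaml1 43 against 334 (4.25), the protocadherin gene Pcdh15 110 against 949 (3.83) and Cdh13 28 against 290 (3.19). Cdh12, Slit3 and Cntnap4 were lower, at ratios of 0.29, 0.34 and 0.46. Lsamp, an immunoglobulin-type adhesion gene, was the second most abundant gene in OPC nuclei with 577 UMIs, after Gm42418 with 2064.

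Receptors of neurotransmitters and ion channels had median log2 ratios of -0.32 and -0.15 against the other nuclei, most of which are neurons. Of 34 listed receptor genes 28 could be compared, with 3 higher and 2 lower, shares near the 9.71% and 4.72% of all genes compared. Grin3a, an NMDA receptor subunit, was highest in ratio at 5.09 (31 against 201 UMIs), followed by Grik4, a kainate receptor subunit, at 3.42, and Grid1 at 2.03. Of the channel genes 24 could be compared, none was higher and Kcnh7 alone was lower (29 against 2027 UMIs, 0.47). Of 27 listed growth factor and guidance receptors, 18 had ratios above 1 and 6 below, beside 5851 above and 4404 below over all genes with UMIs. Of the 13 that could be compared 3 were higher (Pdgfra, Ptprz1 and Erbb4) and 1 lower, beside 9.71% and 4.72% of all genes compared. Pdgfra is one of the markers, and 2 of the 13 passed only through OPC nuclei. Erbb4, a neuregulin receptor, was higher at 127 against 1849 UMIs (2.27), and Robo2, a Slit receptor, lower at 10 against 858 (0.38).

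Genes of dividing cells were near the limit of detection. The 26 cell cycle genes in the table had 23 UMIs in total in OPC nuclei, 300 CPM (190 to 451) against 227 (209 to 247) in the others. Mki67 and Top2a, genes of cycling cells, had none. No cell cycle gene reached the floor, so a difference in division was not detectable at this depth.

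The summed committed precursor genes stood 4.67 times as high in OPC nuclei as elsewhere (4.10 to 5.31), and the identity list 4.73 times (4.44 to 5.04). Astrocytes were nearer for the identity list, at 5177 CPM (4890 to 5477) against 14447 in OPC nuclei and 7031 in leiden value 14 (5940 to 8264). At least 1 UMI of the identity list was seen in 75.2% of astrocyte nuclei and 73.8% of leiden value 14. Of the 15 committed precursor genes, 13 had ratios above 1 and 1 below, with a median log2 ratio of 2.19. Of the 7 that could be compared, all higher, 5 passed the floor only through OPC nuclei, so that count adds nothing. Bcas1, a gene of newly forming oligodendrocytes, had 59 UMIs against 112 (ratio 17.4, 12.5 to 24.1), the inositol trisphosphate receptor gene Itpr2 22 against 54 (13.5), Tns3, a tensin of cell-matrix contacts, 24 against 67 (11.8) and Fyn, a Src-family kinase that acts in myelination, 59 against 467 (4.17).

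The genes of the myelin list behaved otherwise. The list of 27 had a median log2 ratio of 0.05 against all other nuclei, but 26 of the 27 had ratios below 1 when OPC nuclei were set against the 298 oligodendrocyte nuclei, with a median log2 ratio of -2.37. Over all 12286 genes with UMIs in either, 4316 had ratios below 1 and the median was 0. Mbp, the myelin basic protein gene, stood at 901 CPM in OPC nuclei and 2133 in oligodendrocytes. The median of 0.05 is near 0 and its sign was not stable: it was -0.91 against glial and vascular nuclei alone, -0.03 after thinning, -0.21 without the top 5% of UMIs of each class and -0.37 with leiden value 8 alone. At least 1 UMI of the list was seen in 87.0% of OPC nuclei and in 83.0% of astrocyte nuclei, which should not make myelin, so this share does not separate OPC nuclei from that level.

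The annotated OPC nuclei were not alike. Leiden value 8 had the higher levels of most precursor identity genes and leiden value 14 of most committed precursor genes, although both bear the same name. Between them 385 genes could be compared under the same floor, set on the smaller group: 52 were higher in leiden value 8 (13.5%) and 63 lower (16.4%), with a median log2 ratio of -0.17. Of the called genes, 57 passed the floor only through leiden value 14 and 40 only through leiden value 8, in each case the group where they are high, so these counts support nothing by themselves. The authors' clustering separated the nuclei by gene expression, so these differences describe how it did so and are no independent finding. When the nuclei of the library were clustered anew, 103 of the 154 nuclei of leiden value 8 but 20 of the 61 of leiden value 14 fell in the cluster where OPC was the most common class. A rebuilt cluster of 2264 nuclei, 741 of them ExNeuron3, held 21 nuclei of leiden value 8 and 17 of leiden value 14. The rebuilt clusters whose most common class was ExNeuron1 held 7, 6 and 10 nuclei of leiden value 8. The same clusters held 12, 5 and 4 nuclei of leiden value 14.

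Lhfpl3 had 121 UMIs in 74 nuclei of leiden value 8 and 7 UMIs in 4 nuclei of leiden value 14, or 2174 CPM (1804 to 2598) against 335 (135 to 690). Xylt1 had 57 UMIs against 2 (ratio 10.7, 2.83 to 90.6) and Vcan 44 against 5 (3.31, 1.31 to 10.7). Pdgfra had 18 UMIs in 17 nuclei of leiden value 8 and none in leiden value 14, a level at least 2.25-fold higher if 3 counts are put in place of 0 and the 18 UMIs are taken as exact. The exact interval of the ratio, which covers the counting error of both sides, starts lower, at 1.65, and Pdgfra did not reach the floor in this comparison.

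Cspg4 also had 9 UMIs against 0, and the exact interval of its ratio starts at 0.74, so a difference was not detectable at this depth. Summed, the 5 markers stood at 3252 CPM in leiden value 14 (2526 to 4123), below the 7134 of leiden value 8 (6450 to 7872) and above the 597 of all other nuclei and the 303 of oligodendrocytes. Of the 68 UMIs in leiden value 14, Tnr made up 54. Tnr was alike in level: it had 157 UMIs in 80 nuclei and 54 UMIs in 22 nuclei, or 2821 CPM (2397 to 3299) against 2583 (1940 to 3370), a ratio of 1.09 whose interval spans 1 (0.80 to 1.52). Any of the 5 markers was seen in 82.5% of nuclei of leiden value 8 (75.5% to 88.1%) and 41.0% of leiden value 14 (28.6% to 54.3%), against 9.73% of oligodendrocyte and 19.9% of astrocyte nuclei. The nearest classes were ExNeuron4 at 26.3% (23.1% to 29.6%), whose interval overlaps that of leiden value 14, and ExNeuron5 at 22.1% (17.7% to 26.9%).

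Over the OPC identity list, 18 of the 23 genes with UMIs had ratios above 1 in leiden value 8 over leiden value 14 and 3 below, with a median log2 ratio of 1.31. Over all 10188 genes with UMIs in either, 2011 had ratios above 1 and 3619 below. Outside the markers, Mmp16, a membrane metalloprotease (35 against 1 UMI), Epn2, an endocytic adaptor (42 against 3), Megf11 (28 against 2), Pcdh15 (101 against 9) and Dscam (119 against 15) stood higher in leiden value 8. Grin3a had 31 UMIs in 29 nuclei of leiden value 8 and none in leiden value 14, at least 3.88-fold higher in the same sense, while the exact interval of the ratio starts at 2.97.

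With genes at 0 UMIs on a side placed at their bound, as Grin3a is, the 8 highest ratios with the floor met belonged to Zeb1 (38 against 1 UMI), Mmp16, Xylt1, Ppp2r2b (57 against 2), Sntg1 (40 against 2), Sgcd (59 against 3), Lhfpl3 and Npas3 (51 against 3). Zeb1 and Npas3 encode transcription factors, Ppp2r2b a regulatory subunit of protein phosphatase 2A, and Sgcd and Sntg1 members of the dystrophin-associated complex. All but Lhfpl3, with 7, had 1 to 3 UMIs on the lower side, and such ratios have wide intervals, for example 14.3 (2.41 to 579) for Zeb1.

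Committed precursor genes ran the other way. Bcas1 had 37 UMIs in 30 of the 61 nuclei of leiden value 14 and 22 UMIs in 18 of the 154 nuclei of leiden value 8, which is 1770 CPM (1246 to 2439) against 395 (248 to 599), or 4.48-fold higher (2.57 to 7.97). Fyn had 41 UMIs in 29 nuclei against 18 in 16, 6.06-fold higher (3.41 to 11.2). Tns3 had 18 UMIs in 18 nuclei against 6 in 6, 7.98-fold higher (3.04 to 24.6). Oligodendrocyte nuclei were lower than leiden value 14 for all of these, at 303, 202 and 64.4 CPM.

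Of the 14 committed precursor genes with UMIs, 11 had ratios below 1 and 2 above, with a median log2 ratio of -2.08 for leiden value 8 over leiden value 14. The 6 that could be compared were lower in leiden value 8, beside 16.4% of all genes compared, but all 6 passed the floor only through leiden value 14, so that count adds nothing. At least 1 UMI of the list was seen in 91.8% of nuclei of leiden value 14 (81.9% to 97.3%) and 44.8% of leiden value 8 (36.8% to 53.0%), against 35.6% of oligodendrocyte and 31.7% of astrocyte nuclei. The summed level of 7940 CPM in leiden value 14 was 4.25 times that of leiden value 8 (3.30 to 5.48) and 5.76 times that of oligodendrocytes (4.59 to 7.23).

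Itpr2 had 16 UMIs in leiden value 8 and 6 in leiden value 14, a ratio of 1.00 (0.37 to 3.13). It was below the floor, so a difference was not detectable at this depth. Nuclei with UMIs of both lists were equally frequent, 37.7% of leiden value 8 and 36.1% of leiden value 14. Nuclei with a committed precursor UMI and no marker UMI made up 55.7% of leiden value 14 and 7.14% of leiden value 8.

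**Figure D4:**
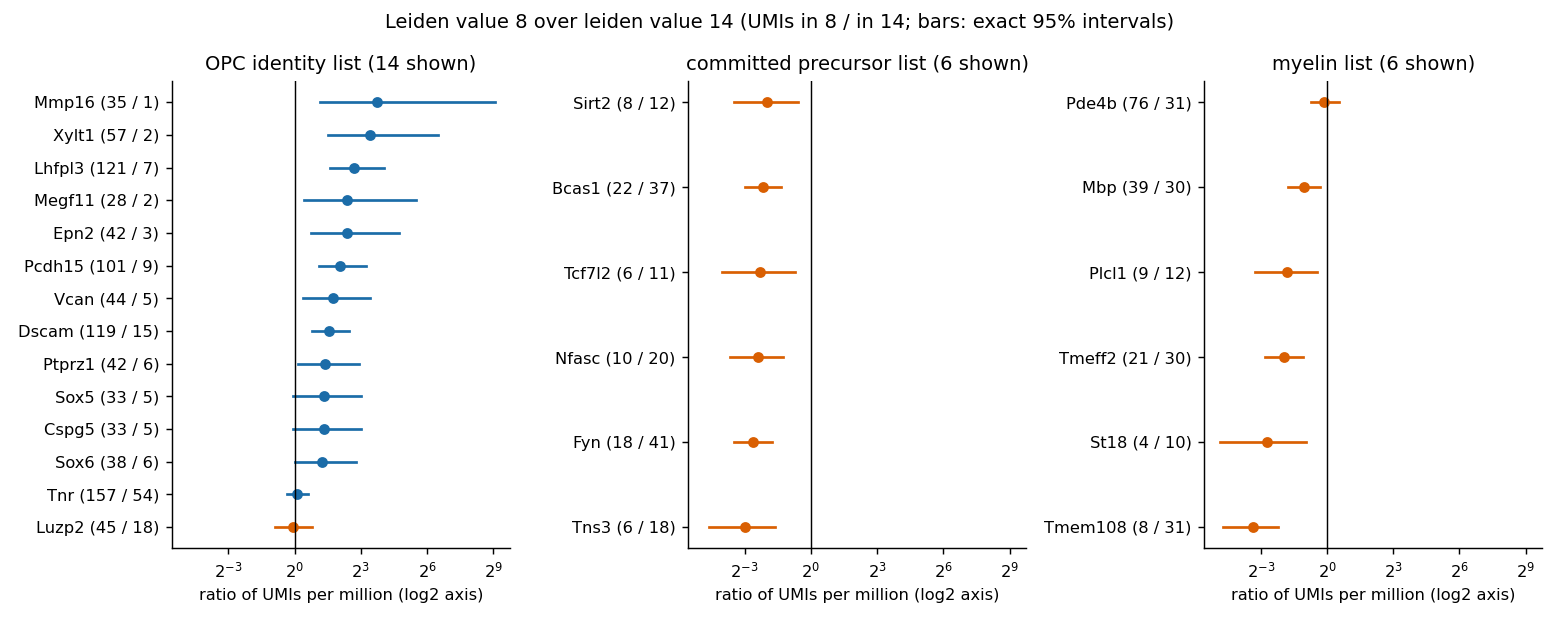
Ratio of CPM in leiden value 8 over leiden value 14 (x axis, log2 scale) for genes of 3 lists that could be compared, with exact 95% intervals and the UMIs of both in brackets. The OPC identity genes lie mostly right of 1 (blue), and the committed precursor and myelin genes left of it (orange), with Tnr and Luzp2 near 1.

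The genes most raised in leiden value 14 went beyond the lists. Frmd4a, a FERM domain protein gene, had 100 UMIs in 21 nuclei against 31 in 28, or 8.59-fold higher (5.69 to 13.3). A single nucleus held 14 of the 100 UMIs, and 86 remained without it. Sema4d, a membrane semaphorin, had 13 UMIs against 2, Epb41l2, a membrane skeleton protein gene, 18 against 6, Cnksr3 16 against 5, Mpzl1, a myelin protein zero-like gene, 10 against 3, and Pik3r3, a regulatory subunit of phosphoinositide 3-kinase, 16 against 6.

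The summed myelin level of leiden value 14 lay between those of leiden value 8 and oligodendrocytes, but the genes were uneven. Of the 25 with UMIs in either leiden value, 18 had ratios below 1 for leiden value 8 over leiden value 14 and 4 above, beside 3619 below and 2011 above over all genes with UMIs. Mal, Opalin, Ermn, Prr5l and Apod had no UMI in leiden value 14. Of the 7 that could be compared 6 were lower in leiden value 8, beside 16.4% of all genes compared, but 4 of the 7 passed only through leiden value 14. Mbp had 30 UMIs in 17 nuclei against 39 UMIs in 37 nuclei of leiden value 8, or 1435 CPM (968 to 2048) against 701 (498 to 958), and 2133 (1867 to 2426) in oligodendrocytes. The summed list stood at 13057 CPM in leiden value 14, 5463 in leiden value 8, 5352 in astrocytes and 29442 in oligodendrocytes. Leiden value 14 was thus 2.39 times as high as leiden value 8 (2.02 to 2.82) and lower than oligodendrocytes by 2.25 times (1.99 to 2.56). Mag, with 9 of its UMIs in 2 nuclei of leiden value 14, shows how few nuclei carry some of these genes. Tmem108, also on this list, had 31 UMIs in leiden value 14 against 8 in leiden value 8, and 1483 against 202 CPM in oligodendrocytes.

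**Figure D5:**
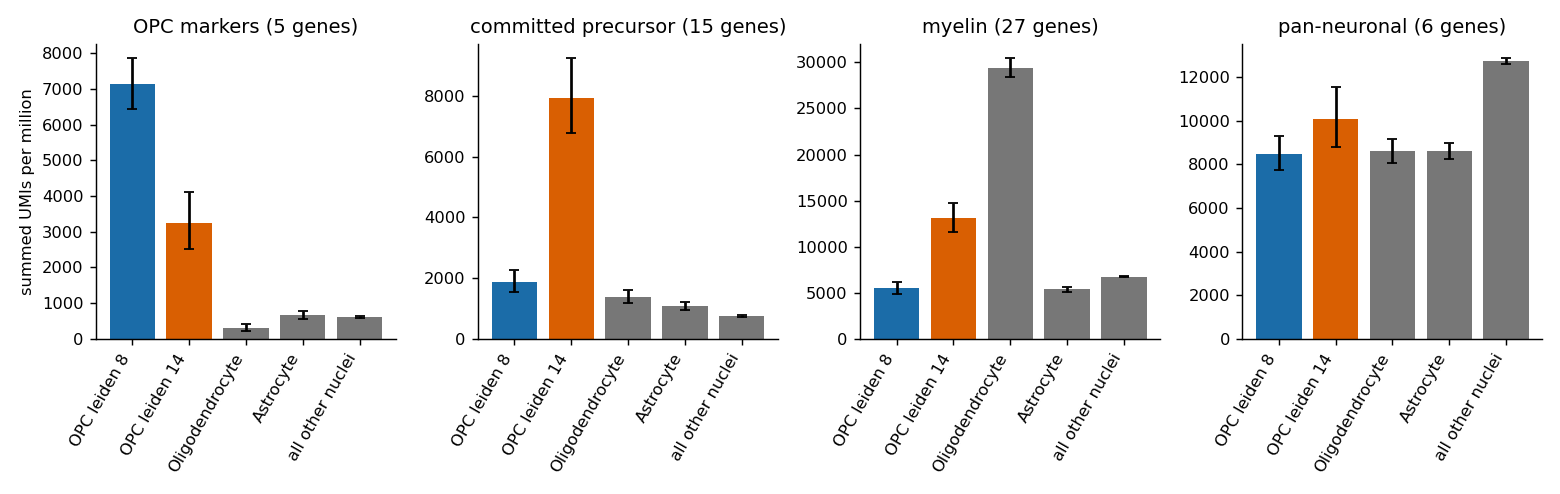
Summed CPM (y axis, bars starting at 0) of 4 lists in leiden values 8 and 14, oligodendrocytes, astrocytes and all other nuclei, with exact 95% Poisson intervals. The committed precursor level is highest in leiden value 14, and its myelin level lies between leiden value 8 and oligodendrocytes.

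Markers of other cell types were also summed in both leiden values. Astrocyte genes summed to 3522 CPM in leiden value 8 and 1961 in leiden value 14, against 8800 in astrocytes and 3130 in all other nuclei. For this list leiden value 8 stood 1.80 times as high as leiden value 14 (1.28 to 2.58), and Aqp4 was at 0 in both. Gpc5 made up 73 of the 196 UMIs of that list in leiden value 8. Pan-neuronal genes stood at 8482 and 10092 CPM, against 8597 in oligodendrocytes, 8599 in astrocytes and 12740 in all other nuclei. For this list leiden value 14 stood 1.19 times as high as leiden value 8 (1.01 to 1.40). Microglial genes had 15 and 7 UMIs, endothelial genes 5 and 3, and mural and leptomeningeal genes 5 and 4. In CPM these were 270 and 335, 89.9 and 143, and 89.9 and 191, against 254, 144 and 142 in all other nuclei. Glutamatergic genes had 59 and 22 UMIs, inhibitory neuron genes 32 and 8, and cerebellar granule neuron genes 136 and 52. In CPM these were 1060 and 1052, 575 and 383, and 2444 and 2487, against 1335, 677 and 2626 in all other nuclei. The part of RNA from other cells in these results was not tested.

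Of the 18 lineage transcription factors with UMIs in either leiden value, 9 had ratios above 1 for leiden value 8 over leiden value 14 and 6 below, with a median log2 ratio of 0.02. Of the 6 that could be compared 2 were higher and 1 was lower, beside 13.5% and 16.4% of all genes compared. Tcf7l2, active at the committed stage, had 6 UMIs in leiden value 8 and 11 in leiden value 14, while Sox5 and Sox6 had 33 against 5 and 38 against 6. Myrf, the regulator of myelin genes, had 0 and 4 UMIs, and Sox10 8 and 2, both below the floor. Olig1 and Olig2, too sparse to compare, had no UMI in leiden value 14.

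Promoters were read for a gene from each direction, Vcan and Tns3, to show the sequence before the start of the gene with the largest ratio among those with at least 10 OPC UMIs and of a committed precursor gene. The 250 bases before the RefSeq start (GRCm38.p6) are at chr13:89742513-89742762 for Vcan and chr11:8664536-8664785 for Tns3, both on the minus strand. Capitals mark the 2 motifs searched on both strands, the E-box CAGCTG, of the kind basic helix-loop-helix factors bind, and ACAAT, the core of SOX motifs.
Vcan: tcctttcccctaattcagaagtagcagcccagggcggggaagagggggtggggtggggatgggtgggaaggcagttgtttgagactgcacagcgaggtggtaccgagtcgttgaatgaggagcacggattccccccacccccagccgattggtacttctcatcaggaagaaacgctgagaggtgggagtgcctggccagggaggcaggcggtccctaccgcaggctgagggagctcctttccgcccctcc
Tns3: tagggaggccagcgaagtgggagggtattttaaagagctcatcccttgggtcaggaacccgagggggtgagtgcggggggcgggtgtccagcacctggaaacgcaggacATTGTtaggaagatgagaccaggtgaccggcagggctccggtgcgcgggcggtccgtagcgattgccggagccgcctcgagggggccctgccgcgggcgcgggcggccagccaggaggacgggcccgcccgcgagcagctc

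Vcan had no match, and Tns3 had 1 match of ACAAT on the opposite strand (ATTGT) and none of CAGCTG. Of the 25 leading genes 15 had a single RefSeq start. CAGCTG was in 2 of these 15 (13.3%) and in 12.7% of 22862 promoters with a single start, and ACAAT in 4 of 15 (26.7%) and 28.9%. Of the genes most different between the leiden values only 3 of the 8 higher and 4 of the 8 lower had a single start, too few to compare. The shares of the leading genes were close to those of all promoters.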

How the data were processed

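Nuclei of FFPE mouse brain were profiled by droplet sequencing. The values are UMI counts per gene and nucleus in the authors' deposited table, with the authors' annotation and leiden values. The mitochondrial fraction of a nucleus is its UMIs of mitochondrial genes divided by its summed UMIs. This fraction was calculated from the deposited UMI counts, which the authors had made from sequencing reads before deposit. Builds mm10 and hg19 are named in the submitters' processing notes; the sources used here name no aligner or filter of the authors. In 131 nuclei the table sums to 1 UMI below the deposited total. Genes were placed by GENCODE M21.

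UMIs were summed per set and divided by the set's total (Python 3.11.15, numpy 2.4.6, scipy 1.17.1, pandas 2.3.3). Genes entered a comparison with 10 UMIs in the smaller set, observed or expected, and were called at a 2-fold ratio. Intervals are exact Poisson, binomial (Clopper-Pearson) and conditional binomial. No doublet caller was run and no nucleus was removed. Scripts were tested on simulated data.

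Named genes are the 25 largest and 10 lowest ratios, the 8 largest and 8 lowest between leiden values, the 5 with most UMIs, list members with at least 10 OPC UMIs and the 5 markers. Genes with fewer UMIs were named after their values were seen. Some genes that the rule names are not reported here. Members and lists were chosen with earlier results of these data known. Alternatives were other comparison sets, thinning, other floors, other totals, single leiden values and clusters rebuilt with scanpy 1.11.5.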

Additional observations from a re-analysis of the deposited data

How the results depend on the processing

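The counts of called genes depended on the floor and on which nuclei were used. Genes higher in OPC nuclei numbered 183, and 73 with a floor of 20 UMIs, 2036 with no floor and 57 with leiden value 14 alone. Genes lower numbered 89, and 16 with the floor of 20, 817 with none, 58 after thinning, 15 with leiden value 14 alone and 158 in a rebuilt cluster. Between the leiden values 52 were higher and 63 lower, and 19 and 15 with the floor of 20, 488 and 1700 with none, and 27 and 32 after thinning. The OPC identity median of 2.56 was 0.38 with leiden value 14 alone. The myelin median of 0.05 was -0.91 against glial and vascular nuclei and 0.82 with leiden value 14 alone, and it was below 0 in other settings too. The share with at least 2 markers, 42.3%, was 32.1% after thinning, 56.5% and 6.56% in leiden values 8 and 14, and 30.4% in the rebuilt cluster. The other 39 alternative values, among them the list medians between the leiden values, stayed within 1.5 times for counts, or within the counting interval or the interval of the median over a list's genes. All 25 leading genes kept ratios of at least 2 in every other choice of nuclei or totals but leiden value 14 alone (20 of 25), but fewer passed the floor and were called in some: 17 after thinning, 20 with leiden value 8 alone, 5 with leiden value 14 alone, 23 in the rebuilt cluster and 24 without the top 5% of UMIs.

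Rebuilt clusters made mostly of OPC nuclei, meant as another definition of the cells, gave no value: of 10 rebuilt clusters none was mostly OPC. The rebuilt cluster used in its place was chosen after seeing the data; it has 326 nuclei, of which 123 are annotated OPC. No paired analysis was possible because there is 1 droplet library. Depth limits every gene with few UMIs.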

Other observations

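Among the 10 genes lowest in OPC nuclei, Atp6v0e2, a proton pump subunit gene, had 1 UMI against 437, Nell1 1 against 343, Tll1 1 against 355, Cdh7 2 against 383, Dgkd 2 against 347, Vgf, a neuropeptide precursor gene, 2 against 339, and Atrx, a chromatin remodeller gene, Il1rapl2 and Klhl29 3 each against 442, 414 and 378. At the level of the other nuclei each of these would have had at least 10 UMIs in OPC nuclei.

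Plate libraries of batches 1 and 2, whose values are read counts, were looked at for the same genes in 98 and 134 nuclei. Batch 3 was not analysed here, and the table has no row for Lhfpl3. A first split, by the number of marker genes with counts, moved with the number of genes detected: in batch 2 the median was 1288 genes with 0 markers, 1595 with 1 and 2086 with 2 or more, so depth and marker number cannot be told apart there. A second split, by Pdgfra, was made after the first had been seen. Pdgfra had counts in 3 nuclei of batch 1 and 8 of batch 2. In batch 2, at medians of 1815 genes in these 8 nuclei and 1531.5 in the 126 others, Tnr was seen in 7 of the 8 and 54.0% of the others, Xylt1 in 6 and 27.8%, Ptprz1 in 6 and 23.0%, Sox6 in 6 and 18.3%, Vcan in 4 and 18.3%, Sox10 in 3 and 2.38%, Olig1 in 3 and 13.5%, Tns3 in 3 and 19.0%, and Cspg4 in 1 and 3.97%. Enpp6 was seen in 1 and 0.794%, while Olig2, Bcas1, Aqp4 and Mog were seen in none of the 8 and in 2.38%, 7.94%, 3.97% and 8.73% of the others. The neuronal genes Snap25 and Gabra6 were seen in 7 and 4 of the 8, and in 96.0% and 35.7% of the others. In batch 1 all 3 had Ptprz1, 2 each had Tnr, Olig1, Gabra6 and Snap25, and 1 had Xylt1. None of these 3 had a count of the other genes, among them Sox6, which 25.3% of the other nuclei had, and Vcan, which 7.37% had. These 16 genes were chosen after the droplet results, and no test was made.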
